A study of Mus musculus with 30 samples.

Results

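Acute phase proteins and metallothioneins were followed in mouse liver as 10 genes, taken by symbol from the deposited count table of 55450 genes: *Saa1*, *Saa2*, *Saa3*, *Orm1*, *Orm2*, *Hp*, *Lcn2*, *Apcs*, *Mt1* and *Mt2*. All 10 had enough counts to be tested in every comparison. The 30 libraries, each of polyadenylated liver RNA from 1 male mouse, form 6 groups of 5: knockout and *Cebpa* fl/fl mice in 3 experiments that ask what the loss of CEBPA from hepatocytes changes under a diet rich in fat, cholesterol and fructose (HFCFD). In HFCFD2W the mice ate the diet for 2 weeks, and the knockout was *Cebpa* ΔHep, in which an albumin promoter drives Cre constitutively, so hepatocytes lack the gene from early life. In HFCFD8W+T10D and HFCFD12W+T10W the knockout was *Cebpa* ΔHep,ERT2, in which albumin-driven Cre acts only under tamoxifen. The diet lasted 8 weeks with tamoxifen in the last 10 days in the former, and 12 weeks followed by 10 weeks with tamoxifen, 22 weeks in all, in the latter. Both genotypes of these experiments carry the tamoxifen treatment in their labels, the floxed *Cebpa* alleles were shared by all 30 mice, and the age of the mice is not given in the sources used here. Each library is a piece of whole liver from 1 mouse, so fewer cells of a type and less RNA per cell cannot be told apart. Below, a mouse is named by genotype and number, and the knockout mice of HFCFD2W are numbered 2 to 6.

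The acute phase response is a change in the plasma proteins made by the liver during infection, injury or other inflammation. Cytokines such as IL-6 and IL-1 act on hepatocytes through STAT3, NF-kB and C/EBP factors, and the genes of serum amyloid A (*Saa1*, *Saa2* and *Saa3*), the orosomucoids or α1-acid glycoproteins (*Orm1* and *Orm2*), haptoglobin (*Hp*), lipocalin 2 (*Lcn2*) and serum amyloid P (*Apcs*) are classical targets in mice. Metallothioneins (*Mt1* and *Mt2*) are small cysteine-rich proteins that bind zinc and copper. They are induced by metals through MTF1 at metal response elements, by glucocorticoids, and in the acute phase.

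Library totals ran from 7996128 to 10257366 counts. *Cebpa* held 149 to 193 CPM (counts scaled to the TMM-adjusted library size) in the fl/fl mice of HFCFD2W, 121 to 156 CPM in those of HFCFD8W+T10D and 82.5 to 135 CPM in those of HFCFD12W+T10W. In the knockout mice it held 3.43 to 5.68, 11.1 to 25.1 and 18.7 to 23.8 CPM, so that no knockout mouse reached a fl/fl mouse. The 6 hepatocyte markers were all detected, and their summed level ran from 93597 to 138954 CPM over the fl/fl mice. In the knockout mice the sum was 112455 to 162471 CPM in HFCFD2W, 53688 to 109272 CPM in HFCFD8W+T10D and 46584 to 56087 CPM in HFCFD12W+T10W. *Alb* makes up most of this sum. In HFCFD12W+T10W *Alb* (-1.10), *Hnf4a* (-0.96) and *Serpina1c* (-1.96) passed as lower in knockout mice on the log2 scale, and *Apoa1* (-0.03), *Apob* (-0.05) and *Ttr* (0.13) did not pass. Of 5 adipocyte markers, 4 (*Adipoq*, *Retn*, *Lep* and *Plin1*) were at 0 in all libraries. In HFCFD12W+T10W the 4 cholangiocyte markers summed to 3.22 to 5.05 CPM in fl/fl and 31.8 to 54.9 CPM in knockout mice, and the 5 markers of stellate cells and fibroblasts to 239 to 298 and 932 to 1150 CPM.

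The members lie in small clusters. On GRCm38, *Saa3* (chr7:46711998-46715700, minus strand), *Saa1* (chr7:46740497-46742980, minus strand) and *Saa2* (chr7:46751790-46754313, plus strand) share a stretch of chromosome 7, *Orm1* (chr4:63344560-63348163) and *Orm2* (chr4:63362449-63365878) follow each other on the plus strand of chromosome 4, and *Mt2* (chr8:94172664-94173568) and *Mt1* (chr8:94179082-94180327) on the plus strand of chromosome 8. *Hp* (chr8:109575128-109579172), *Lcn2* (chr2:32384633-32388252) and *Apcs* (chr1:172893961-172895041) stand alone on the minus strand. RefSeq (GRCm38.p6) gave a promoter for 8 of the 10 genes, not for *Hp* and *Orm1*. The sequences upstream of the annotated start are shown for a pair whose levels moved closely together (*Saa1* and *Saa2*), for the orosomucoid with an entry (*Orm2*), and for both metallothioneins, since *Mt2* was the member that passed in HFCFD2W. Capitals mark the C/EBP motif TTNNGNAA in *Saa1*, *Saa2* and *Orm2* and the metal response element core, TGCACNC or TGCGCNC, in *Mt1* and *Mt2*, each searched on both strands. Bases inside the GENCODE gene were left out.
*Saa1* (chr7:46742981-46743230, minus strand): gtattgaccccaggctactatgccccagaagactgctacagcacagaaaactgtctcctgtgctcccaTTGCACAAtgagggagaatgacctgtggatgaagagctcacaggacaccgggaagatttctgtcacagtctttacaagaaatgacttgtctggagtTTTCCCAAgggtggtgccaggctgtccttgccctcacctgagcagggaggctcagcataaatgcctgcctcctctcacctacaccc
*Saa2* (chr7:46751583-46751789, plus strand): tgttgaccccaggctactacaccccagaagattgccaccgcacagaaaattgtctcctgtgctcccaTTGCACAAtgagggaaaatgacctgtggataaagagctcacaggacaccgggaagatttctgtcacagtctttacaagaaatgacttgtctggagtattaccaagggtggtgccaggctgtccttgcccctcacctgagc
*Orm2* (chr4:63362199-63362448, plus strand): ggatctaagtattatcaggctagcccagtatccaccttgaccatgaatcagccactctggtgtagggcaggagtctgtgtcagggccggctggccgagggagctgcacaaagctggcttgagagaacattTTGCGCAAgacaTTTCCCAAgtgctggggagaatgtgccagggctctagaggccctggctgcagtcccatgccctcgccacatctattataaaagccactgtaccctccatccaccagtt
*Mt1* (chr8:94178839-94179081, plus strand): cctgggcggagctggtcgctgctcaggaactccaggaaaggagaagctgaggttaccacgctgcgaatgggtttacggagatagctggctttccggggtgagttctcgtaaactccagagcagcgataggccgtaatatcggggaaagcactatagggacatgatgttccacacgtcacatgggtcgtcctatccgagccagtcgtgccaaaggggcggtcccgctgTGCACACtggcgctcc
*Mt2* (chr8:94172368-94172617, plus strand): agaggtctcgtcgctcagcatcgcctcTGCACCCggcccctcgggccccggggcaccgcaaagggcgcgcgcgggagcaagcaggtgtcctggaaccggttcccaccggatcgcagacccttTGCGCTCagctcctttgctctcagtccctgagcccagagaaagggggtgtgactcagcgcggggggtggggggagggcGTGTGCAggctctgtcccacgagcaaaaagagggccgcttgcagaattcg
The full windows of 250 bases of *Saa1* and *Saa2* were identical at 238 of 251 aligned positions (94.8%), against 45.7% for *Mt1* and *Mt2*. The C/EBP motif occurred 2 times in *Saa1*, 1 time in *Saa2*, 4 times in *Saa3*, 2 times in *Orm2* and 1 time each in *Lcn2* and *Mt2*, and was not found in the windows of *Apcs* and *Mt1*. Of 32851 RefSeq promoters, 36.8% held it. A C/EBP match on the reverse strand, written TTGCACAA in the sequences above, lay 182 bases before the start in *Saa1* and 183 bases before it in *Saa2*, and *Saa1* held a further one, written TTTCCCAA, 86 bases before the start. The core of the metal response element was found 3 times in *Mt2* and 1 time in *Mt1*, and in 21.4% of promoters, while the STAT3 motif TTCNNNGAA (7.02% of promoters) was found in *Apcs* only. Coding transcripts of *Mt1* and *Mt2* also start further downstream, up to 152 and 242 bases from the start used, and the sequence before those starts is not shown here. These matches describe letters, and no binding was measured.

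Levels per transcript length differed widely among the members. In the fl/fl mice of HFCFD2W the median TPM (RSEM's length-scaled transcript abundance) was 2899 for *Hp*, 560 for *Orm1*, 337 for *Saa1*, 199 for *Mt1*, 162 for *Saa2*, 85.6 for *Mt2*, 38.7 for *Apcs*, 26.4 for *Orm2*, 15.1 for *Saa3* and 10.8 for *Lcn2*. Haptoglobin, which binds free hemoglobin, thus stood highest by far. In the knockout mice of HFCFD12W+T10W the median TPM was 8155 for *Hp*, 1201 for *Saa1*, 632 for *Saa2*, 498 for *Mt2*, 484 for *Mt1*, 191 for *Lcn2*, 165 for *Orm2*, 142 for *Orm1*, 119 for *Saa3* and 41.6 for *Apcs*. *Orm1* stood second in the first of these orders and eighth in the last.

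Within each experiment, 1 of the 10 members passed the genotype test (edgeR quasi-likelihood F test, adjusted p under 0.05 over all genes). In HFCFD2W it was *Mt2*, higher in *Cebpa* ΔHep mice, where 16.7% of 11068 genes passed (8.6% higher and 8.09% lower). In HFCFD8W+T10D it was *Lcn2*, higher in *Cebpa* ΔHep,ERT2 mice, where 17.1% of 11990 genes passed (10.3% higher and 6.85% lower). In HFCFD12W+T10W it was *Orm1*, lower in *Cebpa* ΔHep,ERT2 mice, where 51.1% of 12463 genes passed (27.4% higher and 23.8% lower). At an unadjusted p under 0.05, 2, 2 and 3 members passed. The median log2 fold change (knockout over fl/fl) of the 10 members was 0.41, 0.54 and -0.50, against 0.01 over all genes in each experiment. In several groups 1 mouse stood far above the others, as the plot of single mice shows. Genotype effects are therefore also given without knockout mouse 3 of HFCFD2W, knockout mouse 1 of HFCFD8W+T10D or fl/fl mouse 5 of HFCFD12W+T10W where that changes them. These mice were chosen after their *Saa1* levels had been seen, and other members move with *Saa1*, so the p-values without them are descriptions.

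**Figure D1:**
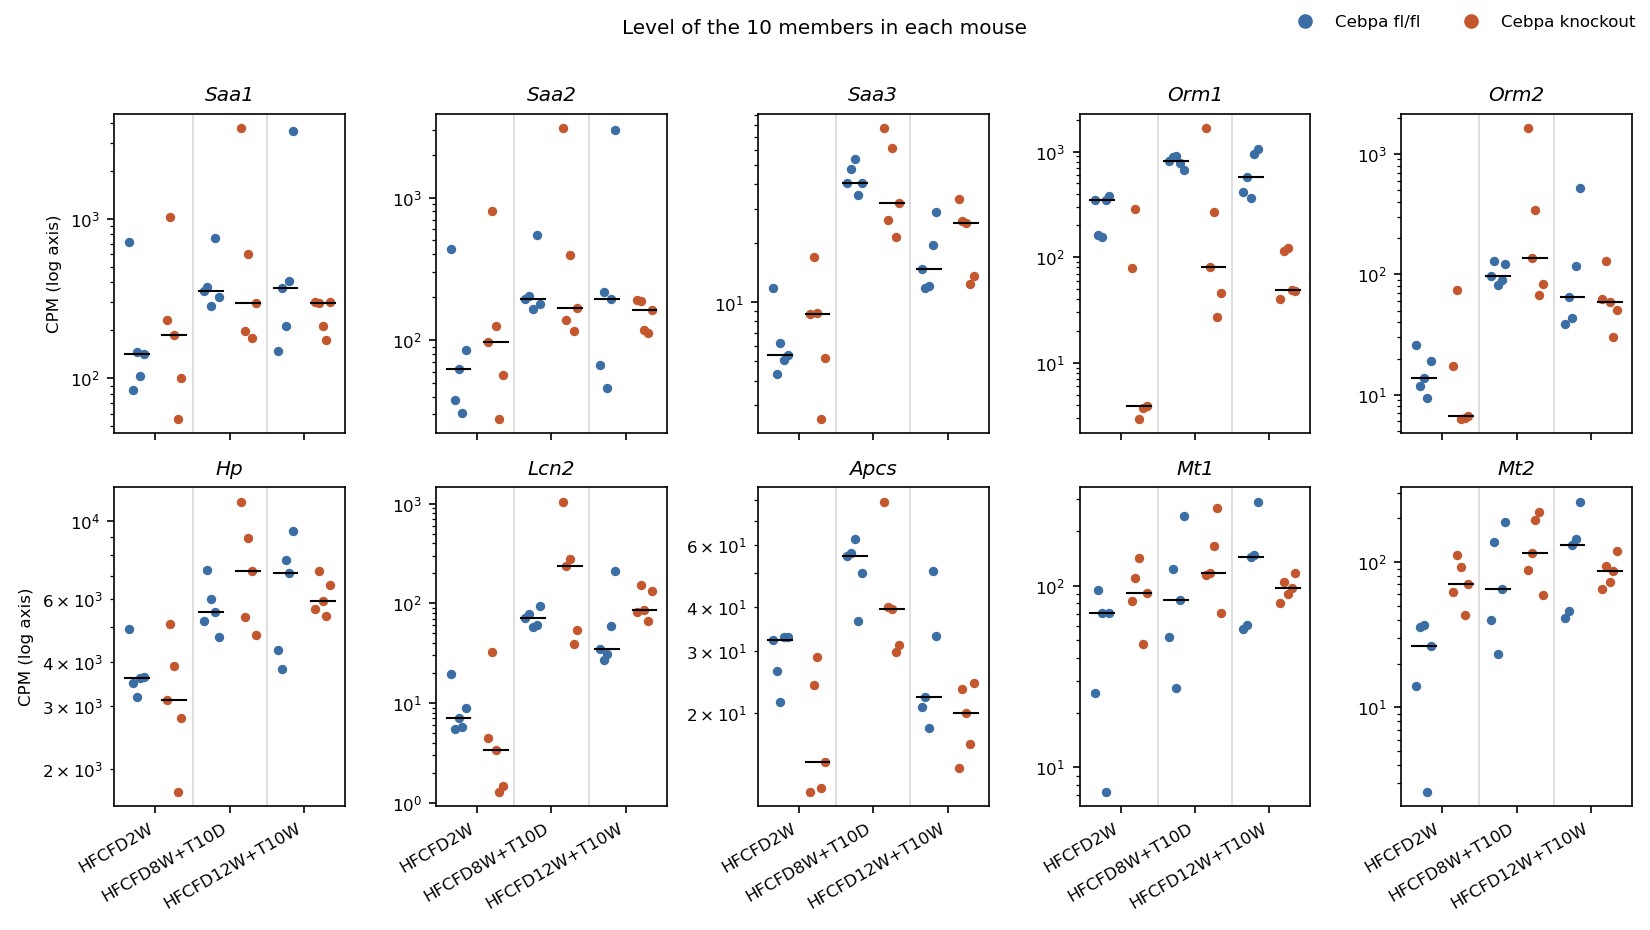
CPM (log axis) of each member in each mouse, by experiment and genotype; points are mice and lines are medians of 5 mice. Single mice stand far above their group in *Saa1*, *Saa2*, *Orm2* and *Lcn2*, such as the *Saa1* value of 3688 CPM in a knockout mouse of HFCFD8W+T10D and 3529 CPM in a fl/fl mouse of HFCFD12W+T10W.

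*Saa1* and *Saa2* encode the serum amyloid A apolipoproteins that the liver secretes onto high-density lipoprotein. In HFCFD2W, *Saa1* held 711, 85.0, 147, 104 and 142 CPM in fl/fl mice 1 to 5 and 234, 1020, 187, 56.1 and 101 CPM in *Cebpa* ΔHep mice 2 to 6. In HFCFD8W+T10D it held 354, 372, 284, 759 and 322 CPM in fl/fl mice and 3688, 198, 601, 178 and 298 CPM in *Cebpa* ΔHep,ERT2 mice 1 to 5. In HFCFD12W+T10W it held 149, 367, 213, 409 and 3529 CPM in fl/fl mice and 300, 297, 213, 174 and 301 CPM in *Cebpa* ΔHep,ERT2 mice. The genotypes overlapped in all 3 experiments. Fl/fl mouse 1 and knockout mouse 3 stood high in HFCFD2W, knockout mouse 1 in HFCFD8W+T10D and fl/fl mouse 5 in HFCFD12W+T10W. By edgeR, the genotype difference on the log2 scale was 0.43 (SE 0.75, adjusted p = 0.742), 1.26 (SE 0.74, adjusted p = 0.274) and -1.82 (SE 0.74, adjusted p = 0.0563). Without knockout mouse 3 it was -0.72 in HFCFD2W (adjusted p = 0.468), without knockout mouse 1 it was -0.38 in HFCFD8W+T10D (adjusted p = 0.562), and without fl/fl mouse 5 it was -0.12 in HFCFD12W+T10W (adjusted p = 0.753). Without fl/fl mouse 1, the other high mouse of HFCFD2W, it was 1.41 there for *Saa1* (adjusted p = 0.193) and 2.02 for *Saa2* (adjusted p = 0.13). *Saa2* gave log2 fold changes of 0.77, 1.60 and -2.14 with adjusted p-values of 0.601, 0.212 and 0.0763, and -0.77, -0.33 and 0.28 without the same 3 mice. In both genes the direction turned without 1 mouse in HFCFD2W and HFCFD8W+T10D, and for *Saa2* in HFCFD12W+T10W too. Over the 30 libraries the Pearson r of log2 CPM between *Saa1* and *Saa2* was 0.98, and 0.98 again after the group means were subtracted. The libraries and groups are shared by both genes. Stretches of 50 bases that are identical with another gene make up 14.8% of the *Saa1* and 11.8% of the *Saa2* coding transcripts, so the split of reads between both genes is uncertain to that extent, whereas no stretch of 100 bases was shared. Summed, *Saa1* and *Saa2* gave log2 fold changes of 0.56, 1.40 and -1.95 (adjusted p = 0.682, 0.245 and 0.0619).

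*Saa3*, an amyloid A gene known for expression in macrophages and other cells outside the hepatocyte as well, was far lower than *Saa1* in each group. Its fl/fl mice held 11.9, 4.30, 6.18, 5.11 and 5.39 CPM in HFCFD2W, 40.8, 48.0, 53.8, 35.4 and 40.7 CPM in HFCFD8W+T10D and 14.9, 11.8, 12.1, 19.7 and 28.8 CPM in HFCFD12W+T10W. Its knockout mice held 2.56 to 17.1, 21.6 to 77.2 and 12.4 to 33.6 CPM. The genotypes overlapped in each experiment, and the log2 fold change was 0.39 (SE 0.41, adjusted p = 0.557), 0.02 (SE 0.30, adjusted p = 0.979) and 0.38 (SE 0.30, adjusted p = 0.316), or -0.05, -0.30 and 0.63 without the mouse named for each experiment (adjusted p = 0.952, 0.498 and 0.0848). Leaving out fl/fl mouse 1 of HFCFD2W instead gave 0.69 there (adjusted p = 0.29). The 7 macrophage markers, all detected, summed to 119 to 158 CPM in fl/fl and 146 to 241 CPM in knockout mice of HFCFD2W, to 414 to 682 and 640 to 1362 CPM in HFCFD8W+T10D, and to 213 to 653 and 652 to 767 CPM in HFCFD12W+T10W. By edgeR, 3 of 6 tested, 6 of 7 and 6 of 7 of these markers passed in the 3 experiments, beside 16.7%, 17.1% and 51.1% of all genes. All that passed were higher in knockout mice except *Marco* in HFCFD12W+T10W (-2.35, adjusted p = 0.00261). The part of these markers in the *Saa3* levels was not tested.

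*Orm1* gave the largest genotype difference of the members. This orosomucoid, a lipocalin that carries basic and neutral molecules in plasma, held 411, 569, 366, 950 and 1065 CPM in the fl/fl mice of HFCFD12W+T10W and 40.3, 114, 121, 49.0 and 48.3 CPM in the *Cebpa* ΔHep,ERT2 mice. All 5 knockout mice lay below all 5 fl/fl mice, as 19.5% of the genes tested did. The log2 fold change was -3.13 (SE 0.40, adjusted p = 3.87e-05), an 8.77-fold lower level and its range over the 10 fits that each drop 1 mouse was -3.38 to -2.92. In HFCFD8W+T10D the fl/fl mice held 814, 887, 911, 784 and 673 CPM and the *Cebpa* ΔHep,ERT2 mice 1657, 81.5, 270, 27.3 and 45.6 CPM. Thus 4 of 5 knockout mice lay below every fl/fl mouse and 1 above all of them. The change of -0.95 (SE 0.86) did not pass (adjusted p = 0.496), and without knockout mouse 1 it was -2.93 (SE 0.55, adjusted p = 0.00563). In HFCFD2W the fl/fl mice held 347, 162, 157, 346 and 382 CPM and *Cebpa* ΔHep mice 2 to 6 held 79.4, 283, 2.97, 3.71 and 3.89 CPM. Knockout mice 4, 5 and 6 lay below 4 CPM, whereas mouse 3 was within the fl/fl range and mouse 2 between. The change of -1.89 (SE 0.97) did not pass (adjusted p = 0.203), and without mouse 3 it was -3.61 (SE 0.85, adjusted p = 0.0153). Leaving out fl/fl mouse 1 instead gave -1.81 (adjusted p = 0.28). The levels of *Cebpa* in knockout mice 2 and 3 were 3.43 and 4.26 CPM, the lowest of that group. *Saa4*, a constitutive amyloid A gene that is no member, held 176 and 193 CPM in mice 2 and 3 and 12.2, 19.8 and 39.2 CPM in mice 4, 5 and 6.

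*Orm2*, the neighbour of *Orm1*, did not pass in any of the 3 experiments. Its fl/fl mice held 25.8, 11.9, 13.8, 9.38 and 18.9 CPM in HFCFD2W, 97.7, 129, 81.5, 90.0 and 121 CPM in HFCFD8W+T10D and 38.6, 64.5, 43.3, 117 and 519 CPM in HFCFD12W+T10W. Its knockout mice held 17.5, 73.6, 6.35, 6.39 and 6.71 CPM, then 1630, 138, 344, 67.4 and 83.8 CPM, then 62.3, 128, 58.7, 30.1 and 50.4 CPM. The genotypes overlapped in all 3 experiments. The log2 fold change was 0.50 (SE 0.63, adjusted p = 0.633), 2.13 (SE 0.74, adjusted p = 0.0644) and -1.21 (SE 0.67, adjusted p = 0.148). Without the mouse named for each experiment it was -0.76 (adjusted p = 0.17), 0.61 (adjusted p = 0.339) and 0.03 (adjusted p = 0.956). Leaving out fl/fl mouse 1 of HFCFD2W instead gave 0.73 there (adjusted p = 0.527). The genotype effect on *Orm2* differed between HFCFD12W+T10W and HFCFD8W+T10D by -3.37 (SE 1.07) on the log2 scale (adjusted p = 0.0406 in the joint edgeR fit of 30 libraries, where 10.5% of genes passed), and without knockout mouse 1 of HFCFD8W+T10D, knockout mouse 3 of HFCFD2W and fl/fl mouse 5 of HFCFD12W+T10W this difference was -0.61 (adjusted p = 0.572).

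The ratio of *Orm1* to *Orm2* within a mouse was looked at after the values of both genes had been seen. It separated the genotypes in HFCFD2W and HFCFD8W+T10D, and in HFCFD12W+T10W they met at the edge. In HFCFD2W it was 13.4, 13.6, 11.4, 36.9 and 20.2 in fl/fl mice and 4.53, 3.84, 0.468, 0.58 and 0.58 in knockout mice. In HFCFD8W+T10D it was 8.33, 6.85, 11.2, 8.71 and 5.54 in fl/fl mice and 1.02, 0.592, 0.787, 0.405 and 0.544 in knockout mice. In HFCFD12W+T10W it was 10.7, 8.82, 8.46, 8.12 and 2.05 in fl/fl mice and 0.646, 0.891, 2.05, 1.63 and 0.958 in knockout mice. Among knockout mice of HFCFD2W and HFCFD8W+T10D, those high in *Orm1*, the numerator, had the higher ratios of their group. In HFCFD2W these were 4.53 and 3.84 in knockout mice 2 and 3, below every fl/fl ratio there. In HFCFD8W+T10D the ratio was 1.02 in knockout mouse 1, also below every fl/fl ratio. In HFCFD12W+T10W knockout mouse 3, the highest in *Orm1*, had 2.05, equal at this rounding to the lowest fl/fl ratio. Knockout mouse 2, next in *Orm1* with 114 CPM, had 0.891, below the 1.63 and 0.958 of knockout mice 4 and 5. The mean log2 ratio differed by -3.82, -3.63 and -2.56, knockout minus fl/fl, each with p = 0.00794, the smallest that an exact two-sided permutation test of 5 against 5 mice can give, and 0.0179 after adjustment over 9 ratio tests. Of the stretches of 100 bases in the *Orm1* and in the *Orm2* coding transcript, 6.95% were shared between both, and of those of 50 bases 20.4% and 22.7% were shared within the family, so the ratio rests on RSEM's split of some reads. The orosomucoids summed, with *Orm3*, gave log2 fold changes of -1.60 (adjusted p = 0.220), -0.07 (adjusted p = 0.961) and -2.53 (adjusted p = 0.000256).

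**Figure D2:**
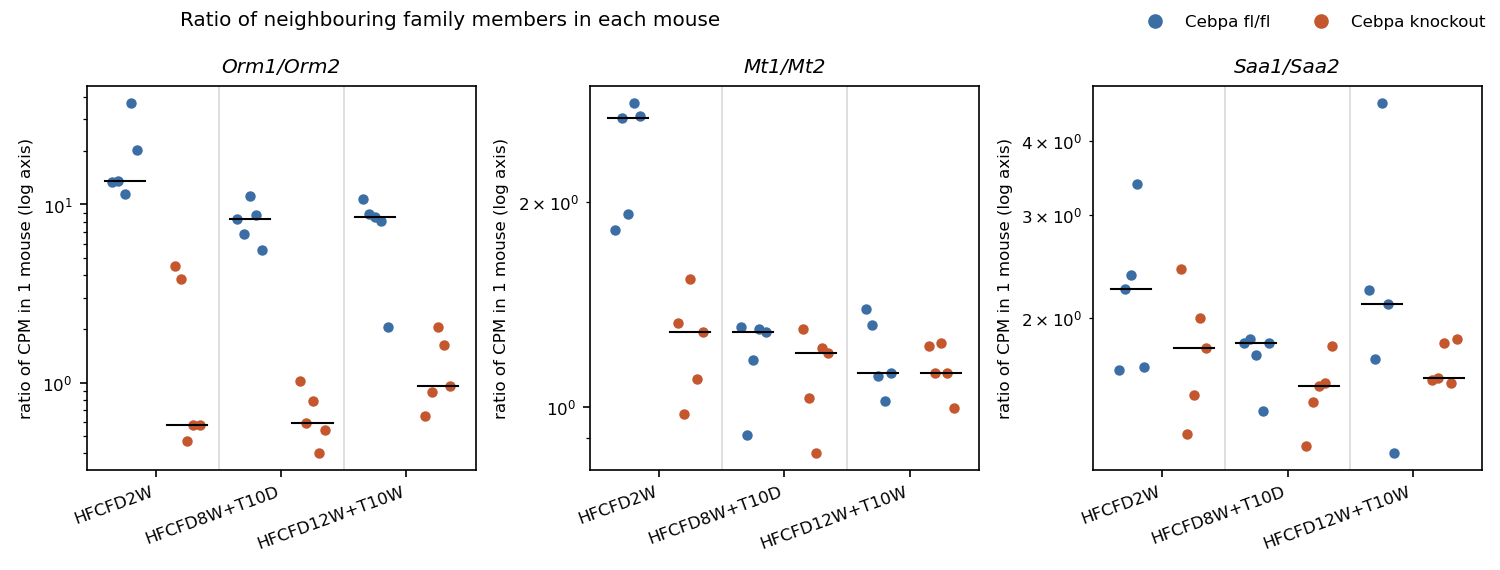
Ratio of the CPM of neighbouring family members within each mouse (log axes), by experiment and genotype; points are mice and lines are medians of 5 mice. The *Orm1* to *Orm2* ratio is lower in the knockout mice of each experiment, with medians of 0.58, 0.592 and 0.958 against 13.6, 8.33 and 8.46, and the *Mt1* to *Mt2* ratio is lower in HFCFD2W.

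Lipocalin 2, which binds iron-carrying siderophores, held 72.0, 78.0, 57.8, 60.7 and 94.6 CPM in the fl/fl mice of HFCFD8W+T10D and 1044, 238, 277, 38.7 and 53.9 CPM in the *Cebpa* ΔHep,ERT2 mice. Of the knockout mice, 3 lay above and 2 below every fl/fl mouse. The log2 fold change was 2.20 (SE 0.69, adjusted p = 0.0451), 4.6-fold higher, but the call was lost in 8 of 10 fits with 1 mouse left out. In 7 of these the change was 2.12 to 2.31 with adjusted p-values of 0.0586 to 0.097, and without knockout mouse 1 it was 1.07 (adjusted p = 0.164). In HFCFD2W, *Lcn2* held 19.4, 5.49, 7.11, 5.79 and 8.94 CPM in fl/fl mice and 4.5, 32.1, 3.38, 1.28 and 1.48 CPM in *Cebpa* ΔHep mice 2 to 6. Here 4 of 5 knockout mice were lower than every fl/fl mouse and mouse 3 was higher than all. The change of -0.08 (SE 0.73, adjusted p = 0.963) became -1.79 (SE 0.45, adjusted p = 0.0211) without mouse 3. Leaving out fl/fl mouse 1, the other high mouse, instead gave 0.35 (adjusted p = 0.806). In HFCFD12W+T10W, *Lcn2* held 35.2, 26.9, 31.0, 59.5 and 211 CPM in fl/fl mice and 82.7, 151, 85.4, 66.4 and 132 CPM in *Cebpa* ΔHep,ERT2 mice. All knockout mice exceeded 4 of the 5 fl/fl mice, and fl/fl mouse 5 exceeded all knockout mice. The change of 0.54 (SE 0.51, adjusted p = 0.398) became 1.47 (SE 0.28, adjusted p = 0.000985) without fl/fl mouse 5. With all mice, the genotype effect on *Lcn2* was not shown to differ from that of HFCFD2W in HFCFD8W+T10D (2.26, adjusted p = 0.184) or HFCFD12W+T10W (0.58, adjusted p = 0.721). Without the 3 mice named for *Orm2*, edgeR gave 2.85 (adjusted p = 0.02) and 3.22 (adjusted p = 0.0029), as descriptions. Neutrophils store lipocalin 2, and 8 neutrophil markers summed to 1.32 to 34.2 CPM in fl/fl and 4.27 to 15.3 CPM in knockout mice of HFCFD8W+T10D and to 2.27 to 6.89 and 12.3 to 102 CPM in HFCFD12W+T10W. In HFCFD2W their sum was at most 3.51 CPM, and *Ly6g* was at 0 in all mice. Their part in the *Lcn2* levels was not tested.

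**Figure D3:**
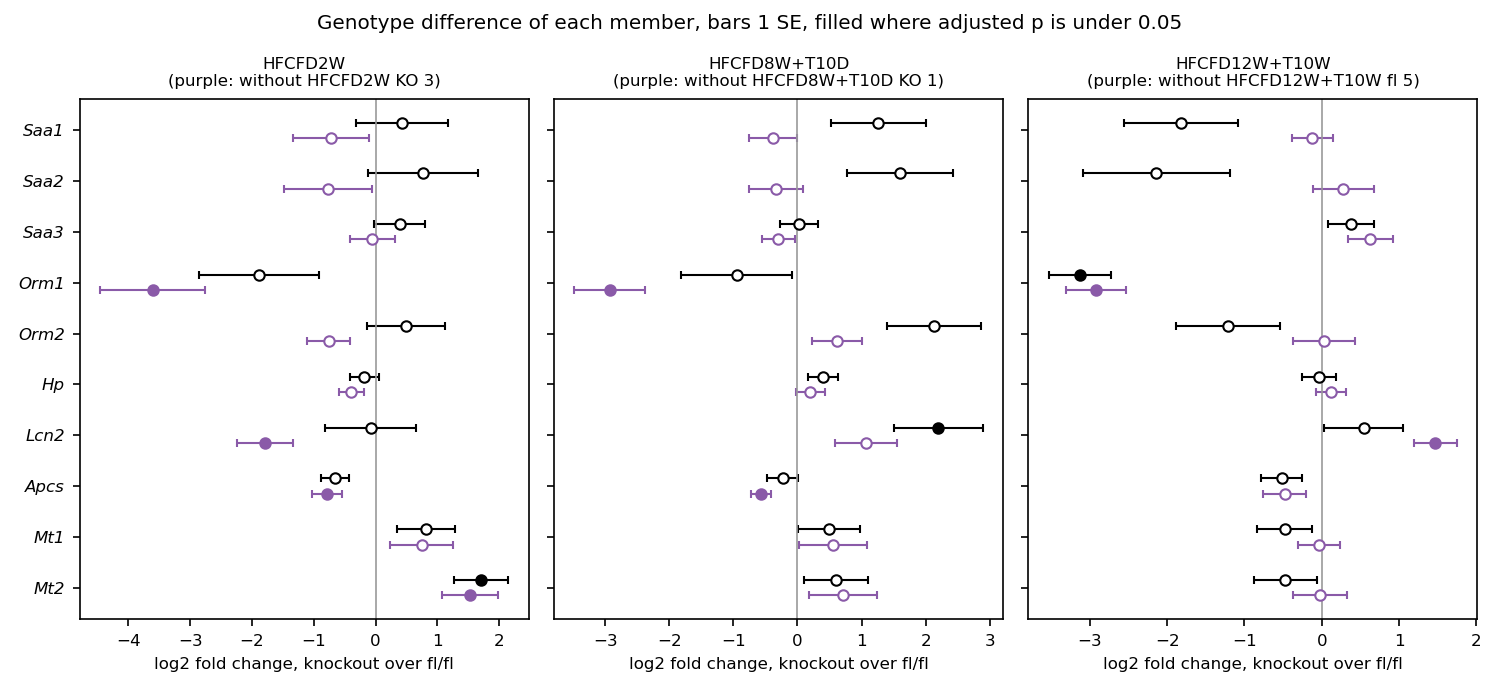
Log2 fold change of each member, knockout over fl/fl, with 1 SE, in the 3 experiments; black marks use 5 mice a group, purple marks leave out the mouse named above each panel, and filled marks have an adjusted p under 0.05. *Orm1* lies below 0 in each panel, and without the named mouse it is -3.61, -2.93 and -2.92.

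Haptoglobin did not pass in any of the 3 experiments. It held 3496, 3187, 3616 and 3638 CPM in fl/fl mice 2 to 5 and 4946 CPM in fl/fl mouse 1 of HFCFD2W, and 1723 to 5112 CPM in the knockout mice. In HFCFD8W+T10D it ran from 4689 to 7261 CPM in fl/fl and from 4774 to 11287 CPM in knockout mice, and in HFCFD12W+T10W from 3826 to 9359 and from 5379 to 7190 CPM. The log2 fold changes of -0.18, 0.40 and -0.03 had SEs of 0.23, 0.24 and 0.22 and did not pass (adjusted p = 0.627, 0.289 and 0.911). *Apcs* encodes serum amyloid P, a pentraxin that is the major acute phase pentraxin of the mouse. It held 32.2, 26.3, 21.5, 32.8 and 32.8 CPM in fl/fl and 12, 24.1, 28.8, 12.3 and 14.6 CPM in *Cebpa* ΔHep mice of HFCFD2W, where 3 of 5 knockout mice lay below every fl/fl mouse. Its log2 fold change of -0.66 (SE 0.23) just missed the threshold (adjusted p = 0.0641). It was -0.79 without knockout mouse 3 (adjusted p = 0.0445) and -0.63 without fl/fl mouse 1 (adjusted p = 0.12). In HFCFD8W+T10D it was -0.23 (adjusted p = 0.571) with all mice and -0.57 without knockout mouse 1 (adjusted p = 0.033), and in HFCFD12W+T10W it was -0.52 (adjusted p = 0.114).

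Metallothionein 2 was the member that passed in HFCFD2W. It held 14.1, 35.8, 36.6, 2.62 and 26.4 CPM in fl/fl mice and 62.5, 112, 92.9, 43.3 and 70.4 CPM in *Cebpa* ΔHep mice 2 to 6. All knockout mice lay above all fl/fl mice, as 6.33% of the genes tested did. The log2 fold change was 1.71 (SE 0.44, adjusted p = 0.0186), 3.28-fold higher and its range over the 10 fits that each drop 1 mouse was 1.42 to 1.96, with the call held in all 10. *Mt1* held 25.7, 95.0, 70.4, 7.31 and 70.4 CPM in the same fl/fl mice and 82.8, 110.0, 143, 47.5 and 90.9 CPM in the knockout mice, with overlap and a log2 fold change of 0.81 (SE 0.47, adjusted p = 0.264). Fl/fl mouse 4 was the lowest of all mice in both genes. The ratio of *Mt1* to *Mt2* was 1.82, 2.66, 1.92, 2.79 and 2.67 in fl/fl mice and 1.33, 0.977, 1.54, 1.10 and 1.29 in knockout mice, without overlap (exact permutation p = 0.00794, 0.0179 after adjustment over the 9 ratio tests). This ratio, too, was looked at after the values of both genes had been seen, so its p-value is a description. Neither gene shares a stretch of 50 bases with another gene.

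In the inducible knockouts both metallothioneins overlapped between genotypes. *Mt2* held 40.1, 136, 23.2, 64.7 and 188 CPM in fl/fl and 88.0, 115, 194, 221 and 59.2 CPM in *Cebpa* ΔHep,ERT2 mice of HFCFD8W+T10D, and 41.3, 45.9, 130.0, 144 and 259 against 65.0, 93.6, 72.3, 86.9 and 119 CPM in HFCFD12W+T10W. The genotype effects on the log2 scale were 0.60 (SE 0.50, adjusted p = 0.463) and -0.47 (SE 0.41, adjusted p = 0.368), and those of *Mt1* were 0.49 (adjusted p = 0.540) and -0.48 (adjusted p = 0.295). The genotype effect on *Mt2* differed between HFCFD12W+T10W and HFCFD2W by -2.23 (SE 0.75, adjusted p = 0.024), where 30.7% of genes passed, and by -1.59 (adjusted p = 0.116) without the 3 mice named for *Orm2*. Between HFCFD8W+T10D and HFCFD2W no member's genotype effect was shown to differ (0 of 10 by edgeR, 1 at an unadjusted p under 0.05). Of all genes 11.2% passed there, and the SEs of the members ran from 0.35 to 1.41. The ratio of *Mt1* to *Mt2* had medians of 1.29 and 1.2 in fl/fl and knockout mice of HFCFD8W+T10D and of 1.12 and 1.12 in HFCFD12W+T10W, with overlap.

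Single mice carried high levels of many members at once. Knockout mouse 1 of HFCFD8W+T10D was the highest of its group in 8 of 10 members, with 14.9 times the median of the other 4 mice in *Saa1*, 20.1 times in *Saa2*, 26.1 times in *Orm1*, 14.7 times in *Orm2* and 7.14 times in *Lcn2*. Fl/fl mouse 5 of HFCFD12W+T10W was the highest in 9 of 10, with 12.2 times in *Saa1*, 22.9 times in *Saa2*, 9.62 times in *Orm2* and 6.38 times in *Lcn2*, but 2.17 times in *Orm1*. Knockout mouse 3 of HFCFD2W was the highest in 8 of 10, with 7.09 times in *Saa1*, 74.4 times in *Orm1*, 11.2 times in *Orm2* and 13.2 times in *Lcn2*. The metallothioneins did not share this pattern in every mouse: *Mt1* and *Mt2* had rank 4 of 5 in knockout mouse 1 of HFCFD8W+T10D, and *Mt1* was 2.83 times the median of the others in fl/fl mouse 5 of HFCFD12W+T10W. These 3 mice were also the highest of their groups in 13, 6 and 12 of 16 other positive acute phase genes. Their *Cebpa* levels were 15.2, 97.7 and 4.26 CPM. Their library totals of 9698930, 9695171 and 10257366 counts were each the largest of their group. Their neutrophil sums were 10.8, 5.76 and 2.36 CPM, where the highest sums of these groups were 15.3, 6.89 and 3.51 CPM. The part of neutrophils in these levels was not tested. Fl/fl mouse 1 of HFCFD2W was the highest in 6 of 10 members, with 5.78 times in *Saa1* and 3.01 times in *Lcn2*. In the remaining groups the mouse highest in *Saa1*, fl/fl mouse 4 of HFCFD8W+T10D and knockout mouse 5 of HFCFD12W+T10W, was the highest in 2 and 4 of 10 members. These mice were picked for their *Saa1* level, so the counts describe them and test nothing.

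**Figure D4:**
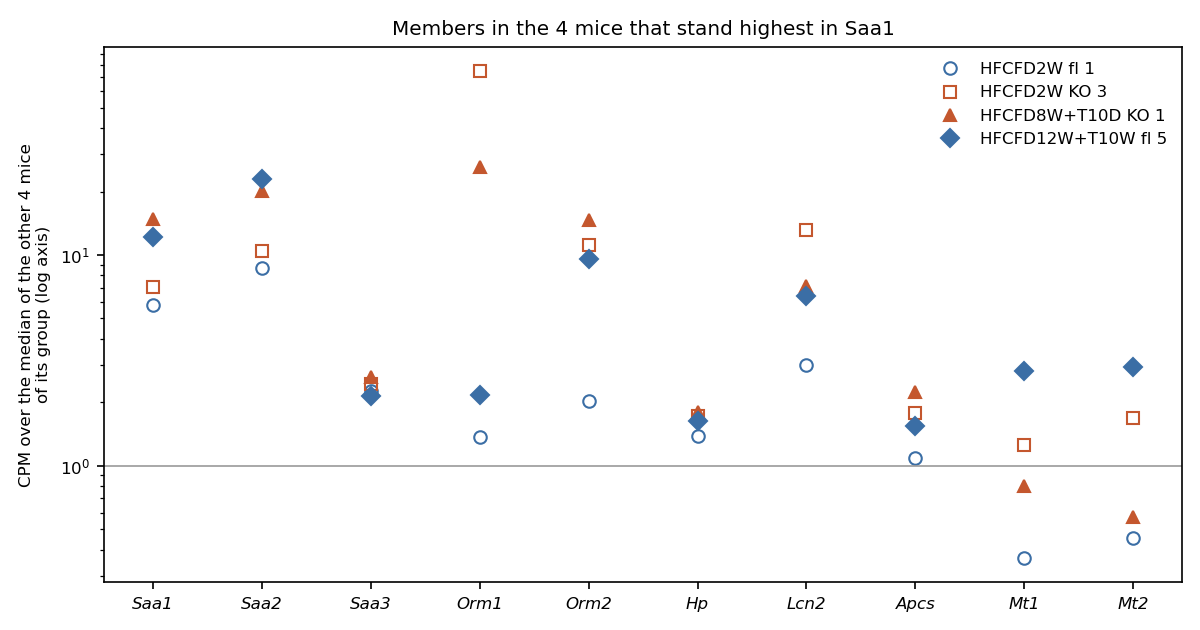
CPM of each member in the mouse that was highest in *Saa1* within its group, divided by the median of the other 4 mice (log axis), for the 4 groups in which that mouse was the highest in at least 6 of 10 members. All members other than *Mt1* and *Mt2* lie above 1 in these 4 mice, *Saa1* by the choice of mouse. In the groups not drawn, *Saa1* and *Saa2* also lay above 1. *Orm2* was 0.821 and 0.833 times and *Lcn2* 0.809 and 1.57 times the median there.

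Across the groups of fl/fl mice, members were higher in HFCFD8W+T10D than in HFCFD2W. By edgeR in the joint fit, 6 of the 10 rose, where 43.6% of genes passed in either direction and 22.2% rose: *Saa3* by 2.74 (adjusted p = 4.19e-06), *Lcn2* by 2.96 (adjusted p = 0.00321), *Orm2* by 2.71 (adjusted p = 0.00909), *Mt2* by 1.96 (adjusted p = 0.00479), *Apcs* by 0.84 (adjusted p = 0.0138) and *Hp* by 0.60 (adjusted p = 0.0491) on the log2 scale. *Orm1* (1.54, adjusted p = 0.167), *Mt1* (0.98, adjusted p = 0.126), *Saa2* (0.98, adjusted p = 0.451) and *Saa1* (0.82, adjusted p = 0.452) did not pass. From HFCFD8W+T10D to HFCFD12W+T10W, 2 of the 10 passed, where 11.4% of genes did: *Saa3* fell by 1.32 (adjusted p = 0.0151) and *Apcs* fell by 0.84 (adjusted p = 0.0398). HFCFD2W differs from the other experiments in mouse line, diet time and tamoxifen, and those differ from each other in diet time and length of tamoxifen, which cannot be told apart here. Ranked by mean log2 CPM over all 6 groups, HFCFD2W held the lowest group for every member, knockout for *Orm1*, *Orm2*, *Hp*, *Lcn2* and *Apcs* and fl/fl for the others. The highest group was the knockout of HFCFD8W+T10D for all but *Saa3*, *Orm1* and *Apcs*, which were highest in its fl/fl mice. By median, however, *Saa1*, *Saa2*, *Mt1* and *Mt2* held 298, 167, 118 and 115 CPM in these knockout mice. The fl/fl mice of HFCFD12W+T10W held more, 367, 194, 144 and 130 CPM. In 50 exact permutation tests between neighbours in these orders, 6 had an unadjusted p under 0.05 and 0 an adjusted one, but with 50 tests the smallest p that these tests can give could not pass alone. By edgeR in the joint fit, the neighbouring fl/fl groups of HFCFD2W and HFCFD8W+T10D differed in *Hp* and *Mt2*, as given above.

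The acute phase members varied together within the groups to different degrees. After subtraction of the group means, the Pearson r of log2 CPM over 30 libraries was 0.93 between *Orm2* and *Lcn2*, 0.89 between *Saa1* and *Orm2*, 0.86 between *Saa1* and *Lcn2*, and 0.84 between *Orm1* and *Orm2*. It was lower for pairs with *Apcs* or *Hp*, such as 0.46 between *Orm1* and *Apcs*, 0.52 between *Saa1* and *Apcs* and 0.58 between *Orm1* and *Hp*. *Mt1* and *Mt2* had an r of 0.98 with each other, but 0.18 and 0.22 with *Saa1*. The points share libraries and depth, and these values are descriptions. The gene outside the members most alike to each over the 30 libraries was *Nnmt* for *Orm1* (r = 0.93), *Isyna1* for *Lcn2* (0.90) and *Orm2* (0.87), *9030619P08Rik* for *Saa3* (0.85), *Hpx*, the heme-binding hemopexin, for *Hp* (0.84) and *Saa2* (0.69), *Vps37b* for *Apcs* (0.79), *Slc10a2* for *Mt2* (0.78) and *Mt1* (0.66), and *Itih4* for *Saa1* (0.73).

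Other positive acute phase genes were compared by count, beside the 16.7%, 17.1% and 51.1% of all tested genes that passed in HFCFD2W, HFCFD8W+T10D and HFCFD12W+T10W. Of 16 genes, 15 were tested in HFCFD2W and 1 passed, ceruloplasmin (*Cp*), lower by 0.39 on the log2 scale (-0.39, adjusted p = 0.00446). In HFCFD8W+T10D 4 of 16 passed, with *Saa4* at -2.26 (adjusted p = 8.07e-05), *Cd14*, the lipopolysaccharide co-receptor, at 1.06 (adjusted p = 0.00353), *Serpina3n* at 0.68 and *C3* at 0.58. In HFCFD12W+T10W 11 of 16 passed, 9 lower and 2 higher, where 23.8% of all genes passed as lower and 27.4% as higher. The largest were *Orm3* at -4.53 (adjusted p = 0.000259), *Saa4* at -2.39 (adjusted p = 0.000136), *Cd14* at 1.34 (adjusted p = 0.00395) and *Fgl1* at -1.13 (adjusted p = 0.00278). The median of the list was -0.04, 0.02 and -0.63, against 0.01 over all genes. *Saa4* thus passed as lower in both inducible experiments, and its neighbours *Saa1* and *Saa2* passed in neither. Their estimates were 1.26 and 1.60 in HFCFD8W+T10D, but -1.82 and -2.14 in HFCFD12W+T10W, near that of *Saa4*. Both pairs of estimates hung on 1 mouse. Without knockout mouse 1 of HFCFD8W+T10D they were -0.38 and -0.33 there. Without fl/fl mouse 5 of HFCFD12W+T10W they were -0.12 and 0.28 there, no longer near *Saa4*. A difference between these genes was not tested. Of 8 negative acute phase genes, which fall during the response, 1, 1 and 4 passed, all lower in knockout mice. Of all genes, 8.09%, 6.85% and 23.8% passed as lower, and 16.7%, 17.1% and 51.1% in either direction. *Alb* was at -0.94 in HFCFD8W+T10D and at -1.10 in HFCFD12W+T10W. *Serpina6*, the carrier of corticosteroids, was at -0.91 in HFCFD2W and at -0.84 in HFCFD12W+T10W, where *Fetub* at -0.88 and *Rbp4* at -0.70 passed as well.

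The upstream genes of the response moved in both directions. Of 16 genes of IL-6 and IL-1 signalling and its transcription factors, 13, 14 and 14 were tested. Over all genes tested, 16.7%, 17.1% and 51.1% passed in the 3 experiments. In HFCFD2W 3 passed, all higher: *Cebpb*, the C/EBP factor of the acute phase, at 1.11 (adjusted p = 0.000394), the IL-6 receptor *Il6ra* at 0.92 (adjusted p = 0.00458) and its partner *Il6st* at 0.23 (adjusted p = 0.0449). In HFCFD8W+T10D the IL-1 receptor *Il1r1* at -1.06 (adjusted p = 0.000952) and *Tnfrsf1a* at 0.38 (adjusted p = 0.00881) passed. In HFCFD12W+T10W 9 passed, 5 higher and 4 lower, the largest of which were *Il6ra* at -1.09 (adjusted p = 2.29e-05), *Osmr* at 0.89, *Il1r1* at -0.74 and *Cebpd* at 0.59. *Il6* itself had a mean of at most 0.0546 CPM in every group and was not tested. Of 7 receptors for the secreted members, 4, 5 and 5 were tested and 2, 3 and 3 passed, beside the same shares over all genes. *Tlr4*, a receptor proposed for serum amyloid A, was higher in knockout mice in all 3 experiments (1.06, 0.87 and 1.29, adjusted p = 0.0478, 0.0202 and 0.000136), and *Cd163*, the receptor of the haptoglobin-hemoglobin complex, was at 0.91 (adjusted p = 0.00182), -0.33 (adjusted p = 0.400) and -3.58 (adjusted p = 3.72e-05). *Fpr2* at 1.46 and *Tlr2* at 1.36 passed in HFCFD8W+T10D, and *Tlr2* at 1.52 in HFCFD12W+T10W.

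Metals and glucocorticoids are known inducers of the metallothioneins, and 7 of 9 metal handling genes and 7 of 7 glucocorticoid response genes were tested. Over all genes tested, 16.7%, 17.1% and 51.1% passed in HFCFD2W, HFCFD8W+T10D and HFCFD12W+T10W. Of the metal handling genes 1, 1 and 5 passed. *Slc30a10*, a manganese exporter, was at -0.83 (adjusted p = 0.00407) in HFCFD2W and -1.87 (adjusted p = 1.37e-05) in HFCFD12W+T10W, and the zinc importer *Slc39a4* was at 2.04 (adjusted p = 3.06e-05) in HFCFD8W+T10D and at 1.35 (adjusted p = 1.28e-05) in HFCFD12W+T10W. *Mtf1*, the metal-sensing factor, did not pass in any of them (-0.08, -0.26 and -0.24, adjusted p = 0.663, 0.121 and 0.0523). Of the glucocorticoid response genes 4 passed in HFCFD2W, all higher: *Tat* at 1.52 (adjusted p = 0.00032), *Fkbp5* at 1.42 (adjusted p = 3.42e-05), *Zbtb16* at 1.32 (adjusted p = 0.0425) and *Tsc22d3* at 1.27 (adjusted p = 0.00166). In HFCFD8W+T10D only the receptor *Nr3c1* passed (-0.39, adjusted p = 0.0131), and in HFCFD12W+T10W 6 passed, 1 higher and 5 lower, with *Sgk1* at 1.18, *Tat* at -0.93, *Zbtb16* at -0.82 and *Fkbp5* at -0.68. The median of this list was 1.27, -0.22 and -0.39, in the order of the experiments, beside *Mt2* changes of 1.71, 0.60 and -0.47. Their part in the *Mt2* levels was not tested.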

How the data were processed

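Liver mRNA was sequenced in 30 libraries, 1 per mouse, after RNeasy Plus extraction and a TruSeq Stranded mRNA preparation. According to the submitters' processing notes, reads were trimmed with Trimmomatic 0.36, aligned with STAR 2.5.1, checked with Picard 1.84 and quantified with RSEM 1.2.22 on mm10. The deposited values are expected counts per gene, and the authors also deposited TPM. Of the expected counts above 0, 11.3% were not whole, and all were rounded before testing. Multi-mapped reads are split by RSEM, which bears on near-identical genes.

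Each experiment was fitted alone with edgeR 4.0.16 (R 4.3.3): filterByExpr, TMM scaling and the quasi-likelihood F test, p-values adjusted by Benjamini-Hochberg over every tested gene and a threshold of 0.05. Differences between experiments came from a joint fit of 30 libraries. CPM values share 1 TMM scale, and log2 CPM used a prior count of 2. Ratios and neighbouring groups were compared by exact two-sided permutation tests (5 against 5 mice, smallest p 0.00794). The fits were tested on simulated data. Samples were grouped by their labels. All genes named from lists were the up to 4 with the largest log2 fold change among those that passed, and the genes most alike were found by Pearson r. Single exceptions (*Saa4*, *Mtf1*, *Cd163*, *Il6*) were named after their values were seen. The members and lists were chosen with earlier results of these data known. Alternatives were DESeq2 1.42.0, upper quartile scaling, no filter on low counts, a stricter threshold, a fold change over 2, the joint fit, a replicate block, summed paralogs and leaving out mice. Library totals of 7996128 to 10257366 counts limit precision for genes of a few CPM. No libraries of 1 group agreed within sampling noise (lowest chi-square per gene 7.45). Promoters came from RefSeq and positions from GENCODE M21, both on GRCm38.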

Additional observations from a re-analysis of the deposited data

Results flagged for a closer look

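Of all values, 3, from 60 groups of 5 mice looked at, stood apart from the other 4 mice of their group on the log2 CPM scale, and chance gives about 1 in 20 such groups. *Saa1* held 711 CPM in fl/fl mouse 1 of HFCFD2W, where the gap to the next mouse took 0.742 of the group's range in log2 CPM (limit 0.71). *Saa1* held 759 CPM and *Saa2* 545 CPM in fl/fl mouse 4 of HFCFD8W+T10D, with gaps of 0.727 and 0.824 of the log2 range, and that mouse was the highest in 2 of the 10 members and in 0 of 16 other acute phase genes. None of these values belonged to the 3 mice left out above for their high *Saa1*. On the CPM scale, tried after seeing the data, 22 of the 60 groups held a mouse past the same limit.

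The genotype effect on *Orm2* differed between HFCFD12W+T10W and HFCFD8W+T10D by -3.37 on the log2 scale (edgeR, adjusted p = 0.0406). The genotype effect on *Mt2* differed between HFCFD12W+T10W and HFCFD2W by -2.23 (edgeR, adjusted p = 0.024), with the fl/fl mice of HFCFD2W holding the lowest mean log2 *Mt2* level of the 6 groups.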

How the results depend on the processing

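Of 2291 alternative values for single genes and for the ratios of neighbouring genes, 2117 kept their direction and side of the threshold. Of the others, 53 lost a call, 36 gained one and 85 changed sign, and the causes were not tested. The threshold was on the adjusted p for genes and on the unadjusted permutation p for ratios. *Orm1* passed in HFCFD12W+T10W under every alternative run. The count of members that passed, 1 in each genotype comparison, was 0 in HFCFD2W and HFCFD8W+T10D at an adjusted p under 0.01, and 2, 2 and 3 in the 3 experiments with no filter on low counts. It was 2 in HFCFD2W with DESeq2, 0 there with summed paralogs, and 2 in HFCFD8W+T10D in the joint fit. Without the 3 mice high in *Saa1* (knockout mouse 3 of HFCFD2W, knockout mouse 1 of HFCFD8W+T10D and fl/fl mouse 5 of HFCFD12W+T10W), chosen after seeing the data, it was 4, 2 and 2. With 1 mouse left out it ran from 1 to 4, 0 to 2 and 1 to 3. The count of members whose genotype effect differed between HFCFD8W+T10D and HFCFD2W was 1 (*Lcn2*) without the 3 mice and 0 to 1 with 1 mouse left out. Between HFCFD12W+T10W and HFCFD8W+T10D it was 0 at p under 0.01, with upper quartile scaling and without the 3 mice, and 0 to 1 with 1 mouse left out. Between HFCFD12W+T10W and HFCFD2W it was 0 at p under 0.01 and 0 to 3 with 1 mouse left out. Without the 3 mice it was 1 there, *Lcn2* in place of *Mt2*. For the fl/fl groups of HFCFD12W+T10W and HFCFD8W+T10D it was 0 at p under 0.01 and 0 to 2 with 1 mouse left out.

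Signs that changed without the 3 mice were, for the genotype effect, *Saa1* -0.72, *Saa2* -0.77, *Saa3* -0.05 and *Orm2* -0.76 in HFCFD2W, *Saa1* -0.38, *Saa2* -0.33 and *Saa3* -0.30 in HFCFD8W+T10D, and *Saa2* 0.28, *Orm2* 0.03 and *Hp* 0.12 in HFCFD12W+T10W. For HFCFD12W+T10W against HFCFD8W+T10D they were *Saa1* 0.24, *Saa2* 0.58, *Lcn2* 0.37 and *Apcs* 0.06 in the genotype effect and *Saa1* -0.56, *Saa2* -0.98, *Orm2* -0.66, *Lcn2* -0.93, *Mt1* -0.05 and *Mt2* -0.00 between fl/fl groups. For the genotype effect of HFCFD12W+T10W against HFCFD2W they were *Saa1* 0.57, *Saa2* 1.00, *Saa3* 0.64, *Orm1* 0.66 and *Orm2* 0.76. Upper quartile scaling gave *Hp* 0.05 in HFCFD12W+T10W, *Saa3* 0.08 in the last difference and *Lcn2* -0.02 between the later fl/fl groups, DESeq2 gave *Saa3* 0.01 in the last difference, and no filter gave *Saa3* -0.00 in HFCFD8W+T10D. With 1 mouse left out, genotype effects that crossed 0 ran from -0.72 to 1.41 for *Saa1*, -0.77 to 2.02 for *Saa2*, -0.05 to 0.69 for *Saa3*, -0.76 to 0.74 for *Orm2* and -1.79 to 0.35 for *Lcn2* in HFCFD2W, from -0.38 to 1.58 for *Saa1*, -0.33 to 2.07 for *Saa2* and -0.30 to 0.18 for *Saa3* in HFCFD8W+T10D, and from -2.48 to 0.28 for *Saa2*, -1.60 to 0.03 for *Orm2* and -0.20 to 0.12 for *Hp* in HFCFD12W+T10W. Differences of the genotype effect that crossed 0 ran from -0.82 to 1.96 for *Saa1*, -1.10 to 2.35 for *Saa2*, -0.70 to 0.04 for *Saa3*, -1.04 to 2.65 for *Orm1* and -0.67 to 0.23 for *Mt1* (HFCFD8W+T10D against HFCFD2W), from -0.43 to 0.01 for *Apcs* (HFCFD12W+T10W against HFCFD8W+T10D), and from -0.37 to 0.38 for *Saa3*, -1.59 to 0.43 for *Orm1*, -0.06 to 0.31 for *Hp* and -0.02 to 0.43 for *Apcs* (HFCFD12W+T10W against HFCFD2W). Between the later fl/fl groups they ran from -0.56 to 1.5 for *Saa1*, -0.99 to 1.93 for *Saa2*, -0.66 to 0.84 for *Orm2*, -0.93 to 0.22 for *Lcn2* and -0.05 to 0.97 for *Mt1*.

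Same-numbered mice of both genotypes showed little common deviation (14 pairs, correlations of -0.231 to 0.184 over 2000 genes). The mice numbered 5 in HFCFD8W+T10D, at 0.16, were each other's best match. Such correlations cannot tell whether the mice share more than a number, and the labels do not say. With the replicate number as a block, 0 members passed in HFCFD2W, where the 4 shared numbers leave out fl/fl mouse 1 and knockout mouse 6 (*Mt2* 1.73, adjusted p = 0.122), 1 in HFCFD8W+T10D (*Orm1* -2.74, adjusted p = 0.044; *Lcn2* 1.27, adjusted p = 0.236; *Saa3* -0.14) and 1 in HFCFD12W+T10W (*Orm1* -3.16, adjusted p = 0.000394; *Hp* 0.04).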
